A study of Mus musculus with 20 samples.

Results

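The 33 genes described here encode subunits of the receptors for glutamate and GABA, the main excitatory and inhibitory transmitters of the brain. They comprise 4 AMPA receptor genes (Gria1 to Gria4), 5 kainate receptor genes (Grik1 to Grik5), 6 NMDA receptor genes (Grin1, Grin2a to Grin2d and Grin3a), the delta receptor gene Grid1, 6 metabotropic glutamate receptor genes (Grm2 to Grm5, Grm7 and Grm8), 9 GABA-A receptor genes (Gabra2 to Gabra5, Gabrb1, Gabrb2, Gabrg1, Gabrg3 and Gabrd) and the GABA-B receptor genes Gabbr1 and Gabbr2. The members were taken by symbol from the 46078 genes of the count tables, and other subunit genes of these families were not analysed here. Every member passed the filter on low counts in each of the 5 comparisons, and the lowest single count was 59, for Grik1.

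AMPA receptors carry most of the fast excitatory current at synapses, while NMDA receptors are blocked by magnesium at rest and admit calcium once the membrane is depolarized. Kainate receptors adjust transmitter release and excitability on both sides of the synapse. Metabotropic glutamate receptors are coupled to G proteins, and the group II and group III members act largely as presynaptic brakes on release. GABA-A receptors are chloride channels built from 5 subunits, at synapses or outside them, and GABA-B receptors are obligate pairs of Gabbr1 and Gabbr2 products that signal through G proteins. Shifts in this balance around an infarct are a known feature of the cortex that survives a stroke.

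Messenger RNA was sequenced from tissue pieces of the brains of 18-month-old wild type male C57BL/6J mice at 7 weeks after DH stroke, in which the distal part of the middle cerebral artery is closed for good and the mouse is kept in low oxygen. All mice had this stroke. From 1 week after it they received subcutaneous injections 3 times per week for 6 weeks, either of PBS (vehicle) or of 4 g/kg HPBCD (hydroxypropyl-β-cyclodextrin, a cyclic sugar that binds cholesterol). Tissue beside the infarct (peri-infarct) and the matching tissue of the other hemisphere (contralateral) were dissected after the infarct had been removed, which gave 4 groups of 5 libraries. The 2 regions of a mouse share an identifier in the deposited names, and the opposite hemisphere of a stroked mouse is not uninjured brain.

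Libraries held 14445021 to 22171627 gene counts, so that a count of 3 corresponded to 0.135 to 0.208 CPM (counts scaled to library size with TMM factors), and this precision covers counting error alone. In these bulk samples fewer cells of a type and less RNA per cell cannot be told apart. Markers of neurons moved with region: the summed level of 10 pan-neuronal markers was 10400 to 12000 CPM in vehicle contralateral, 6660 to 9140 CPM in vehicle peri-infarct, 12000 to 13000 CPM in HPBCD contralateral and 3760 to 6590 CPM in HPBCD peri-infarct libraries. Of these 10 markers, 5 were lower in the peri-infarct region in vehicle, 10 in HPBCD, and 9 were lower in HPBCD than in vehicle peri-infarct libraries, with none higher in any of these comparisons. Reactive astrocyte markers (5 of 5) and microglial markers (6 of 6) were higher in the peri-infarct region in both treatments, and oligodendrocyte markers (5 of 5) in HPBCD. Markers of fibroblasts and meninges (4 of 4) and of ependyma (3 of 4) were higher in HPBCD than in vehicle peri-infarct libraries. Striatal markers (8 of 8) were higher in the peri-infarct region in HPBCD, with a median log2 fold change of 2.81. Their summed levels were 645 to 2010 CPM there, against 205 to 249 CPM in HPBCD contralateral libraries. In vehicle none of them was higher or lower, at 333 to 1910 CPM in peri-infarct and 197 to 3380 CPM in contralateral libraries. Of 6 excitatory neuron markers 2 were lower in the peri-infarct region in vehicle, 5 in HPBCD and 4 between treatments in peri-infarct tissue, with median log2 fold changes of -0.45, -1.70 and -1.01, and of 7 inhibitory neuron markers 2, 6 and 2 were, with medians of -0.40, -0.87 and -0.35. No gene of these lists was at 0 in all libraries, and the part of these shifts in the results below was not tested.

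Some libraries stood apart. HPBCD peri-infarct replicate 2 held 175 CPM of Fibcd1 and 17.6 CPM of Spink8, markers of hippocampal neurons, against 6.9 to 7.83 CPM of Fibcd1 in the other libraries of its group, and vehicle peri-infarct replicate 1 held 53.8 CPM of Fibcd1. Libraries named by hippocampal markers below are so named by Fibcd1 and Spink8, part of a list of 5. Over the HPBCD peri-infarct group the others were at 24.1 ± 1.57 (Prox1), 126 ± 15.5 (Wfs1) and 6.48 ± 3.04 CPM (Neurod1, SD, n = 5). Vehicle contralateral replicate 1 held 580 CPM of Ppp1r1b and 98.0 CPM of Drd1, markers of striatal neurons. HPBCD peri-infarct replicate 2 was the highest of its group for 16 of the 33 members, HPBCD peri-infarct replicate 4 was the lowest of its group for 21, and vehicle contralateral replicate 4 was the highest of its group for 20. Vehicle peri-infarct replicate 3 was the lowest of its group for 20. Libraries also departed from their groups by transcript length. The median log2 deviation of genes with over 8000 bp of exon and of those under 2000 bp was 0.12 and -0.15 in vehicle contralateral replicate 4, 0.10 and -0.21 in HPBCD peri-infarct replicate 2, 0.11 and -0.17 in HPBCD contralateral replicate 2 and -0.14 and 0.21 in HPBCD contralateral replicate 1. Of the members 12 had over 8000 bp of exon and 0 under 2000 bp, and the part of length in their values was not tested. Values without these libraries are given beside the members they moved most. Of the genes described in detail below, Grik2, Grin2a, Grin2b, Gabrd and Gabra5 were chosen after their values were seen, and the others by the rule given with the processing.

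The first question was whether receptor transcripts differed between the peri-infarct and the contralateral region. In vehicle, 2 of 33 members were higher and 4 were lower in the peri-infarct region at an edgeR adjusted p under 0.05, which is what called means from here on unless another tool is named, against 10.5% and 9.7% of the 15801 genes tested. Gabrb1 and Grin3a rose, and Grm2, Gabrd, Grin2a and Grin1 fell. The members' median log2 fold change was 0.06, against 0.01 over all genes and -0.33 over the pan-neuronal markers. Leaving out replicate 4 or 5 of the vehicle peri-infarct group, or replicate 2 or 3 of the vehicle contralateral group, lowered the count from 6 to 3, and limma voom raised it to 11. Over all genes the 3195 calls became 2038 to 2471 in those fits and 5065 with limma voom.

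In HPBCD, 14 of 33 members were lower in the peri-infarct region and 1 was higher, against 24.3% and 30.3% of the 16047 genes tested. Grm2, Gabbr2, Gabra3, Gria4, Gabrd, Grin1, Gria3, Gabra4, Gabbr1, Grin2d, Grm7, Grin2c, Grik5 and Gabrg1 fell, and Grik2 rose. The members' median log2 fold change was -0.38, against 0.03 over all genes and -0.94 over the pan-neuronal markers. Peri-infarct and contralateral libraries did not overlap, with the peri-infarct libraries lower, for 11 members in HPBCD (18.3% of all genes) and for 2 members in vehicle (6.7% of all genes).

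The direction of these counts depends on the scale. When libraries were scaled to their pan-neuronal markers, which moved the median of all genes on the log2 scale from 0.01 to 0.53 in vehicle and from 0.03 to 1.31 in HPBCD, 25 members were higher and 1 was lower in the peri-infarct region in vehicle, and 27 were higher and 1 was lower in HPBCD. Of all genes tested 68.6% were higher and 0.848% lower on this scale in vehicle, and 91.5% and 0.866% in HPBCD, so that the members' counts of higher genes lay near the background in vehicle and below it in HPBCD. The member that was lower on this scale was Grm2 in both treatments, at -0.36 (adjusted p = 0.0494) in vehicle and -1.03 (adjusted p = 0.00193) in HPBCD by edgeR. The members' median on this scale, 0.55 in vehicle and 0.85 in HPBCD, lay near the median of all genes in vehicle and below it in HPBCD.

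**Figure D1:**
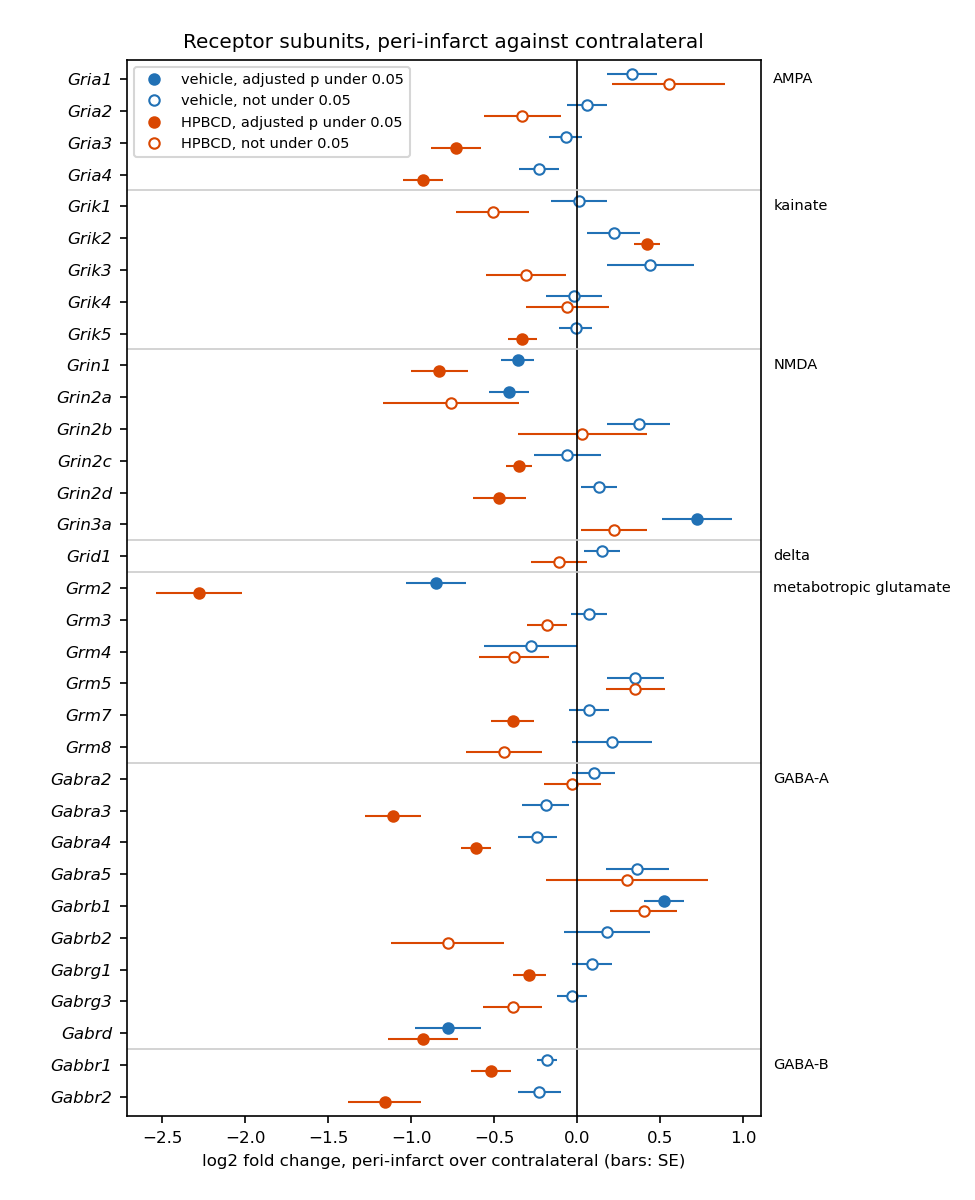
Log2 fold change of each of the 33 members, peri-infarct over contralateral, in vehicle (blue) and HPBCD (orange), with bars of 1 SE and filled points for an edgeR adjusted p under 0.05. In HPBCD 14 members were lower and 1 was higher and in vehicle 4 were lower and 2 were higher, with Grm2 lowest in both, whereas scaling to pan-neuronal markers, which moved the median of all genes to 0.53 in vehicle and 1.31 in HPBCD, placed most members above 0 together with most other genes.

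The second question was whether these transcripts differed between treatments. The treatment of a library was taken from its label. No marker of exposure to HPBCD was available among these measurements to check the labels, and if they were interchanged each difference between treatments would change sign. Of the marker genes in peri-infarct tissue, neuronal Snap25 differed by -0.68 (edgeR adjusted p = 0.0329) and astrocytic Gfap by 1.03 (adjusted p = 0.0552) in HPBCD against vehicle. In peri-infarct tissue 10 of 33 members were lower in HPBCD than in vehicle and none was higher (32 of 33 log2 fold changes were below 0), against 9.0% and 12.4% of the 16224 genes tested. These were Grm2, Gabra3, Gabbr2, Grin2d, Gria3, Gria4, Grik5, Gabbr1, Grm7 and Gabra4, and under pan-neuronal scaling (median of all genes 0.64) none of the 33 was lower and 4 were higher, against 0.16% of all genes lower and 66.4% higher. The members' median log2 fold change was -0.41, against 0.01 over all genes and -0.60 over the pan-neuronal markers. The groups did not overlap, with HPBCD lower, for 5 members (5.97% of all genes). The count of 10 called members rested on single libraries, as did the calls over all genes. Among the vehicle libraries, it was 2 when replicate 1 was left out, 1 when replicate 2 was and 5 when replicate 4 was. Among the HPBCD libraries, it was 21 when replicate 2 was left out, 0 when replicate 3 was (15 members at an unadjusted edgeR p under 0.05) and 5 when replicate 5 was. Over all genes the 3471 calls became 5339 without HPBCD replicate 2 and 823 without HPBCD replicate 3. Of the 10 fits that left out 1 library, Gabra3 kept its call in 9, Gria4 in 8, Grik5 in 7, Grin2d and Grm2 in 6, Gria3 and Gabra4 in 5, Gabbr1 and Gabbr2 in 4 and Grm7 in 3. Without the 3 libraries with hippocampal or striatal markers the calls of Grm2 (-0.93, adjusted p = 0.0548), Grin2d (-0.63, adjusted p = 0.0538) and Gabra4 (-0.31, adjusted p = 0.066) were lost, and Gria2, Grin1, Grin2a, Gabra5 and Gabrb1 were called, for a count of 12.

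In contralateral tissue edgeR called no member between treatments, where it called 0.0% of the 15469 genes tested in either direction. Of the 33 members, 1 had an unadjusted p under 0.05, and neither DESeq2 nor limma voom called any. Over all genes 1224 had an unadjusted edgeR p under 0.05, DESeq2 called 51 and limma voom none. The log2 fold changes ran from -0.24 to 0.47 with a median of 0.01.

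The regional difference itself differed between treatments for 5 members by the interaction term of the model over all 20 libraries, against 4.38% of the 16758 genes tested lower and 5.03% higher. All 5 had a more negative regional difference in HPBCD: Grm2 (log2 interaction -1.44, SE 0.35, edgeR adjusted p = 0.0212), Gabbr2 (-0.95), Gabra3 (-0.93), Gria4 (-0.71) and Gria3 (-0.67). Under pan-neuronal scaling (median of all genes 0.79) none of the 5 was called, and 10 other members had a more positive regional difference in HPBCD, against 68.9% of all genes called in that direction and 0.113% in the other. The count was 1 without vehicle peri-infarct replicate 2, 2 without HPBCD peri-infarct replicate 3, 3 without HPBCD contralateral replicate 2 or 4, 8 without vehicle contralateral replicate 4, and 11 without HPBCD peri-infarct replicate 2. Over all genes the 1577 interaction calls became 529, 555, 715 or 704, 2039 and 3121 in the same order. With the 2 regions of a mouse as a replicate block, these 5 were called with Grin1 (adjusted p = 0.0482) and Gabra4 (adjusted p = 0.0484) beside them.

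**Figure D2:**
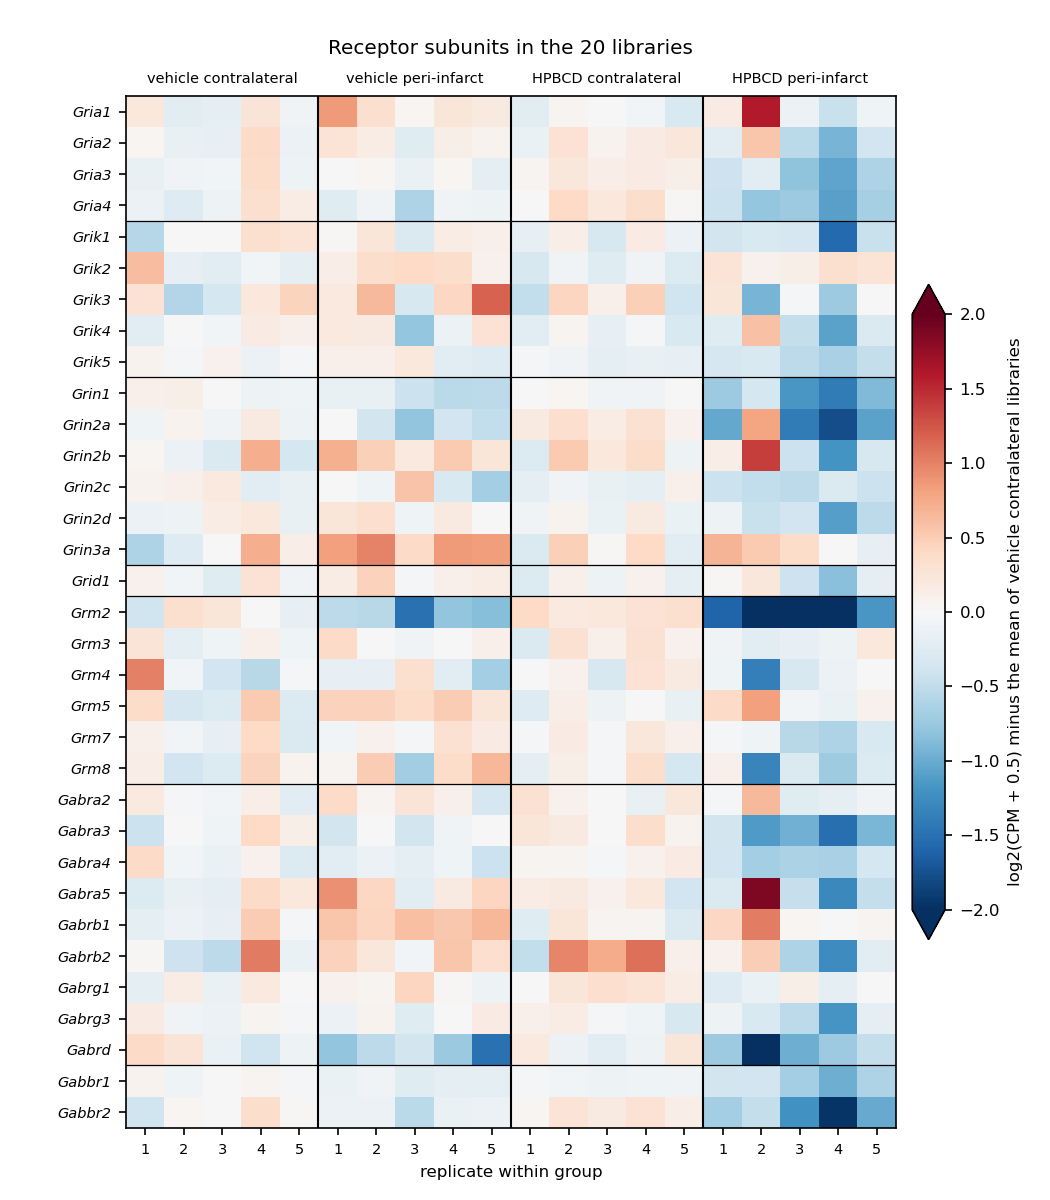
Log2(CPM + 0.5) of the 33 members in the 20 libraries, relative to the vehicle contralateral mean (rows grouped by receptor class, colours limited to 2 in either direction). Most members are lowest in the HPBCD peri-infarct libraries. Scaling to pan-neuronal markers turned positive 25 of 26 negative differences between HPBCD regions and 25 of 32 between treatments in peri-infarct tissue. Replicate 2 of the HPBCD peri-infarct group departs from its group for Gria1 (885 CPM), Grin2a (277 CPM), Grin2b (690 CPM) and Gabra5 (137 CPM).

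The promoters of members with a different regional difference between treatments are shown as sequence only, and shared control of these genes was not tested. RefSeq (GRCm38.p6) gave a window of 300 bases, from 250 before to 50 after the start, for 23 of the 33 members, Gria3 not among them. The windows are on the minus strand, at chr9:4796185-4796484 for Gria4, chr9:106656060-106656359 for Grm2, chrX:72656758-72657057 for Gabra3 and chr4:46991665-46991964 for Gabbr2. Each is written 5′ to 3′ with capitals for matches to the GC box (GGGCGG or its reverse complement CCGCCC) and the CCAAT box (CCAAT or its reverse complement ATTGG).
Gria4: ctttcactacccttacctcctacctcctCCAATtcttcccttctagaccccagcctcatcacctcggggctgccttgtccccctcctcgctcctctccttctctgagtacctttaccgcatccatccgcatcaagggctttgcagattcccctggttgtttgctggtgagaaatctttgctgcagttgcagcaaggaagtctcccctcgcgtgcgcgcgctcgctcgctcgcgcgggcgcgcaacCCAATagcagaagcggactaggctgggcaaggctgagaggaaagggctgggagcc
Grm2: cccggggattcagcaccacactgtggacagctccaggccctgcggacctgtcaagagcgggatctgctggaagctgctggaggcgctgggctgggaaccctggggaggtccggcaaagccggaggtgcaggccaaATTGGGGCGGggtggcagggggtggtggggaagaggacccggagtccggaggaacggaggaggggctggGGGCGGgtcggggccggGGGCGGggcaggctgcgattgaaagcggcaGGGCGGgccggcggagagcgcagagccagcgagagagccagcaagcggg
Gabra3: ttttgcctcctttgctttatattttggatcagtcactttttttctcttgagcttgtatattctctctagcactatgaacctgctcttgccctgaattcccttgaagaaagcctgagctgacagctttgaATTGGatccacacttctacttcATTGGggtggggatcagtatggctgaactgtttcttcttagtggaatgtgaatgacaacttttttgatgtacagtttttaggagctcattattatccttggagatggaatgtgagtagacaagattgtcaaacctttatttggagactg
Gabbr2: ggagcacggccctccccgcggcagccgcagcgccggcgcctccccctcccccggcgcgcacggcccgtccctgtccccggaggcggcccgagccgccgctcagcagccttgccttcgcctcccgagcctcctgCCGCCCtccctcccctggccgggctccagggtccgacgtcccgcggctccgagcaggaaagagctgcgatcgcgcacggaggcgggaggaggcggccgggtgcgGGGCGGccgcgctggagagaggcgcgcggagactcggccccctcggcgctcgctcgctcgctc
The Grm2 window held 4 GC boxes and 1 CCAAT box, an ATTGG that runs into the first GC box, with a GC content of 72.0%. The Gabbr2 window held 2 GC boxes and no CCAAT box at a GC content of 80.3%. Those of Gria4 (59.7% GC) and Gabra3 (39.3% GC) each held 2 CCAAT boxes and no GC box. A GC box was found in 65.2% of the 23 member windows and in 35.7% of all 32851 windows, and a CCAAT box in 34.8% and 37.4%. The median GC content was 65.7% in the member windows and 52.7% in all windows, and its part in the GC box share was not tested. Neither motif was found in all 4 windows, and a match is a description of the sequence only.

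Levels of different genes were compared per length, as CPM per kb of annotated exon. In vehicle contralateral libraries Gabbr1 stood highest at 111 ± 4.56 CPM per kb (SD, n = 5), followed by Gabbr2 at 65.5 ± 11.9, Gria1 at 49.0 ± 7.61, Grik5 at 45.3 ± 2.53, Gabra3 at 43.0 ± 9.02 and Grin1 at 39.0 ± 2.74. The lowest were Grin3a at 1.74 ± 0.638, Grik1 at 1.61 ± 0.375 and Grm8 at 1.31 ± 0.315. The library ranges of neighbours in this order overlapped throughout, except that Gabbr1 stood apart from Gabbr2 and Gabrg1 from Gabrg3.

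Gria2, whose edited product makes AMPA receptors impermeable to calcium, had the highest mean CPM of its class over the 20 libraries. In HPBCD peri-infarct libraries its mean, 361 CPM, was below the 394 CPM of Gria1. The level of Gria2 was 430, 380, 376, 544 and 387 CPM in vehicle contralateral and 507, 464, 356, 455 and 438 CPM in vehicle peri-infarct libraries, and 383, 510, 440, 471 and 489 CPM in HPBCD contralateral and 360, 617, 289, 219 and 321 CPM in HPBCD peri-infarct libraries. The groups overlapped in both regional comparisons and neither was called by edgeR, whereas limma voom called Gria2 lower in HPBCD peri-infarct tissue, at -0.52 against contralateral (adjusted p = 0.007) and -0.49 against vehicle (adjusted p = 0.0332). Without HPBCD peri-infarct replicate 2, the library with hippocampal markers, these differences were -0.64 (edgeR adjusted p = 0.00132) and -0.60 (adjusted p = 0.0155).

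Gria1, the AMPA subunit added to synapses during potentiation, was at 341, 254, 255, 349 and 280 CPM in vehicle contralateral and 529, 366, 302, 347 and 332 CPM in vehicle peri-infarct libraries. In HPBCD it was at 251, 304, 290, 283 and 238 CPM in contralateral and 327, 885, 270, 214 and 276 CPM in peri-infarct libraries. The 2 highest values of the gene were in the 2 peri-infarct libraries with hippocampal markers. Its regional log2 fold change was 0.33 in vehicle and 0.55 in HPBCD, and neither was called (edgeR adjusted p = 0.152 and 0.186), while limma voom called that in vehicle (0.44, adjusted p = 0.0355). Without the library with hippocampal markers in each treatment the differences were 0.17 (adjusted p = 0.34) and -0.02 (adjusted p = 0.888).

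Gria3 and Gria4 encode the remaining AMPA subunits, and Gria4 is prominent in fast-spiking interneurons. Gria3 (ENSMUSG00000001986, chromosome X, 41400854 to 41678601, plus strand, GRCm38) was at 207, 217, 221, 295 and 213 CPM in vehicle contralateral and 227, 235, 209, 234 and 202 CPM in vehicle peri-infarct libraries. In HPBCD it was at 238, 267, 250, 256 and 248 CPM in contralateral and 171, 198, 130, 110 and 149 CPM in peri-infarct libraries. Every HPBCD peri-infarct library lay below every library of the other 3 groups. In HPBCD its log2 level fell by 0.73 (SE 0.15, edgeR adjusted p = 0.00101), with a log2 fold change of -0.07 in vehicle. Gria4 (ENSMUSG00000025892, chromosome 9, 4417896 to 4796234, minus strand) was at 75.5, 69.0, 77.0, 103 and 91.0 CPM in vehicle contralateral and 69.5, 78.2, 53.7, 78.2 and 76.5 CPM in vehicle peri-infarct libraries. In HPBCD it was at 82.4, 108, 95.3, 105 and 83.5 CPM in contralateral and 60.9, 47.9, 49.5, 38.6 and 51.9 CPM in peri-infarct libraries. The HPBCD regions did not overlap, and the fall was 0.93 (SE 0.12, edgeR adjusted p = 3.83e-05), against -0.23 in vehicle. Over the 4 AMPA genes 2 fell in HPBCD (24.3% of all genes) and none in vehicle (9.7% of all genes), with medians of -0.53 and -0.01 that became 0.67 and 0.50 under pan-neuronal scaling.

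Among the 5 kainate receptor genes 1 was higher and 1 lower in HPBCD, where 30.3% and 24.3% of all genes were, and none was called in vehicle. Grik5, an auxiliary kainate subunit that forms channels only with the products of Grik1 to Grik3, held 72.0% ± 3.97 of the summed CPM per kb of the 5 kainate genes in vehicle contralateral libraries. It was at 246, 230, 248, 216 and 231 CPM in vehicle contralateral and 251, 251, 270, 203 and 195 CPM in vehicle peri-infarct libraries, and at 230, 223, 204, 212 and 208 CPM in HPBCD contralateral and 185, 190, 163, 149 and 168 CPM in HPBCD peri-infarct libraries. Its HPBCD peri-infarct libraries lay below all others. It fell in HPBCD by 0.33 (SE 0.09, edgeR adjusted p = 0.00936), while its log2 fold change in vehicle was -0.01.

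Grik2, a principal channel-forming kainate subunit, was the only member higher in the HPBCD peri-infarct region. In CPM it stood at 34.5, 40.7, 36.1, 40.8 and 35.5 in HPBCD contralateral and 51.9, 45.5, 46.6, 54.0 and 52.3 in HPBCD peri-infarct libraries, which did not overlap. Its log2 rise was 0.42 (SE 0.08, edgeR adjusted p = 0.000777). In vehicle it was at 66.2, 38.4, 36.8, 41.4 and 37.8 CPM in contralateral and 47.1, 55.0, 56.7, 54.7 and 45.4 CPM in peri-infarct libraries. The value of 66.2 belongs to vehicle contralateral replicate 1, the library with striatal markers. With that library the difference in vehicle was 0.22 (edgeR adjusted p = 0.349), and without it 0.43 (adjusted p = 0.00934), so that Grik2 was then higher in the peri-infarct region of both treatments. Striatal markers were also higher in the HPBCD peri-infarct region (8 of 8, with summed levels of 645 to 2010 CPM against 205 to 249 CPM in contralateral libraries), and their part in the rise of Grik2 was not tested.

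Grik3 had the largest kainate difference in vehicle, 0.44 on the log2 scale, and it did not pass the test (edgeR adjusted p = 0.253). Without vehicle peri-infarct replicate 5 it was 0.22. Its levels were 91.4, 49.9, 58.9, 87.1 and 102 CPM in contralateral and 86.2, 118, 60.0, 99.7 and 170 CPM in peri-infarct libraries of vehicle, and 53.1, 101, 80.7, 105 and 56.6 CPM in contralateral and 88.6, 39.3, 72.9, 45.3 and 75.1 CPM in peri-infarct libraries of HPBCD. The groups overlapped widely. Grik1 was at 6.93 to 13.3 CPM in vehicle contralateral, 8.59 to 12.6 CPM in vehicle peri-infarct and 8.35 to 11.9 CPM in HPBCD contralateral libraries, and at 8.04, 8.42, 8.29, 3.26 and 7.62 CPM in HPBCD peri-infarct libraries. All 5 of the latter lay below the vehicle peri-infarct libraries, yet the difference of -0.63 was not called (edgeR adjusted p = 0.0657). DESeq2 (-0.64, adjusted p = 0.0299) and limma voom (-0.6, adjusted p = 0.018) did call it. Between HPBCD regions Grik1 was called lower by DESeq2 (-0.54, adjusted p = 0.0333) and limma voom (-0.46, adjusted p = 0.032). Grik4 showed no called difference, at 11.3 to 36.8 CPM over the peri-infarct libraries, and its HPBCD difference of -0.06 was -0.38 without HPBCD peri-infarct replicate 2 (edgeR adjusted p = 0.0503). Over the 5 kainate genes the median was 0.01 in vehicle and -0.31 in HPBCD, which became 0.52 and 0.95 under pan-neuronal scaling.

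Grin1, the NMDA subunit present in every NMDA receptor, fell in the peri-infarct region in both treatments. It was at 403, 408, 374, 350 and 356 CPM in vehicle contralateral and 341, 340, 280, 260 and 263 CPM in vehicle peri-infarct libraries, and at 376, 388, 359, 361 and 376 CPM in HPBCD contralateral and 227, 295, 169, 143 and 205 CPM in HPBCD peri-infarct libraries. The regions did not overlap in either treatment. The fall was 0.36 in vehicle (SE 0.10, edgeR adjusted p = 0.0255) and 0.83 in HPBCD (SE 0.17, adjusted p = 0.00114), and under pan-neuronal scaling Grin1 was at 0.14 and 0.38. The call in vehicle was lost without vehicle peri-infarct replicate 3, 4 or 5 or vehicle contralateral replicate 2 or 3, and with all 4 groups in 1 fit (-0.35, adjusted p = 0.0772). Exons of Grin1 overlap the antisense gene Grin1os over 1307 bp, and since the strand setting of the counting is not given in the sources used here, reads from both may have been counted together.

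Grin2a and Grin2b encode the alternative glutamate-binding subunits of cortical NMDA receptors, of which Grin2b is the more prominent early in life. Grin2a was at 152, 169, 153, 182 and 150 CPM in vehicle contralateral and 160, 124, 92.7, 123 and 114 CPM in vehicle peri-infarct libraries, and at 182, 202, 179, 198 and 170 CPM in HPBCD contralateral and 78.6, 277, 60.5, 46.5 and 76.6 CPM in HPBCD peri-infarct libraries. Except for the value of 277 CPM in the library with hippocampal markers, every HPBCD peri-infarct library lay below every contralateral library. Grin2a fell in vehicle by 0.41 (SE 0.12, edgeR adjusted p = 0.0386), a call that held in 1 of the 10 fits that left out 1 library, the fit without vehicle peri-infarct replicate 1, and that was lost with all 4 groups in 1 fit (-0.39, adjusted p = 0.415). In HPBCD the log2 fold change was -0.76 (adjusted p = 0.131), -0.79 with all 4 groups in 1 fit (adjusted p = 0.0429), -1.13 with the mouse as a replicate block (adjusted p = 0.0147), and -1.52 without replicate 2 of the peri-infarct group (adjusted p = 1.94e-06).

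Grin2b showed no difference called by edgeR with all libraries. It was at 273, 243, 216, 438 and 207 CPM in vehicle contralateral and 433, 367, 303, 379 and 314 CPM in vehicle peri-infarct libraries, and at 219, 379, 307, 342 and 246 CPM in HPBCD contralateral and 289, 690, 196, 115 and 213 CPM in HPBCD peri-infarct libraries. Its difference in vehicle was 0.37 (edgeR adjusted p = 0.196), 0.60 (adjusted p = 0.00749) without vehicle contralateral replicate 4, which held 438 CPM, and 0.61 (adjusted p = 0.0092) by limma voom, which also called its interaction (-1.05, adjusted p = 0.0198). In HPBCD the difference was 0.03, and it turned to -0.57 (adjusted p = 0.0452) without HPBCD peri-infarct replicate 2, a setting in which Grin2b was also lower than in vehicle peri-infarct tissue (-0.84, adjusted p = 0.0187).

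The remaining NMDA genes went different ways. Grin3a, whose product lowers calcium entry through NMDA receptors, was at 13.1, 17.0, 20.4, 33.8 and 22.4 CPM in vehicle contralateral and 36.1, 40.9, 26.6, 37.2 and 36.8 CPM in vehicle peri-infarct libraries, a rise of 0.72 (SE 0.21, edgeR adjusted p = 0.0323). The groups overlapped through vehicle contralateral replicate 4, and the call held in 3 of the 10 fits that left out 1 library, those without vehicle peri-infarct replicate 3 or vehicle contralateral replicate 1 or 4. Without the 3 libraries with hippocampal or striatal markers the rise in vehicle was 0.6 (edgeR adjusted p = 0.0762). In HPBCD Grin3a was at 16.5, 28.6, 20.6, 26.9 and 17.4 CPM in contralateral and 32.9, 29.5, 26.3, 20.4 and 18.1 CPM in peri-infarct libraries, with a difference of 0.22 that was not called. DESeq2 (-0.49, adjusted p = 0.0322) and limma voom (-0.59, adjusted p = 0.0155) called Grin3a lower in HPBCD than in vehicle peri-infarct tissue. Grin2d, a subunit of interneurons and of the early brain, was at 26.0, 27.8, 20.5, 24.9 and 22.0 CPM in vehicle peri-infarct and 20.4, 16.0, 16.6, 9.89 and 15.0 CPM in HPBCD peri-infarct libraries, against 19.7 to 25.5 CPM in vehicle contralateral and 19.8 to 24.9 CPM in HPBCD contralateral libraries. It was lower in HPBCD than in vehicle peri-infarct libraries by 0.64 (SE 0.17, edgeR adjusted p = 0.0255), with no overlap. Exons of Grin2d overlap the gene Gm45441 on the opposite strand over 643 bp, with the same limit on its counts as for Grin1. Grin2c fell in the HPBCD peri-infarct region by 0.35 (SE 0.08, adjusted p = 0.00261), from 50 to 60.7 CPM in contralateral libraries down to 39.1 to 46.4 CPM, and was not called with all 4 groups in 1 fit (adjusted p = 0.0597). Over the 6 NMDA genes the median was 0.04 in vehicle and -0.41 in HPBCD, and 0.55 and 0.86 under pan-neuronal scaling.

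Grid1, a delta receptor that organizes synapses through secreted partners, showed no difference called by edgeR with all libraries. It was at 65.2, 59.2, 52.1, 75 and 58.9 CPM in vehicle contralateral and 68.0, 84.9, 60.3, 66.5 and 68.7 CPM in vehicle peri-infarct libraries, and at 51.0, 65.8, 57.3, 65.5 and 54.3 CPM in HPBCD contralateral and 62.8, 72.5, 46.2, 34.4 and 54.3 CPM in HPBCD peri-infarct libraries. The regions overlapped in both treatments. Between treatments in peri-infarct tissue it was called lower in HPBCD by limma voom (-0.40, adjusted p = 0.0378) and by edgeR without HPBCD peri-infarct replicate 2 (-0.51, adjusted p = 0.0334).

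Grm2, a group II metabotropic receptor that limits glutamate release from presynaptic terminals, had the largest difference of the 33 members in each comparison that called any. The gene (ENSMUSG00000023192, chromosome 9, 106643095 to 106656082, minus strand) was at 31.0, 51.3, 48.8, 40.9 and 36.5 CPM in vehicle contralateral and 28.5, 27.9, 14.3, 23.5 and 22.6 CPM in vehicle peri-infarct libraries. In HPBCD it was at 54.5, 46.9, 47.7, 50.1 and 51.2 CPM in contralateral and 13.2, 4.97, 8.20, 7.18 and 18.0 CPM in peri-infarct libraries. The regions did not overlap in either treatment, and of the HPBCD peri-infarct libraries 1 lay within the range of the vehicle peri-infarct libraries. Grm2 fell in the peri-infarct region by 0.85 in vehicle (SE 0.18, edgeR adjusted p = 0.00989) and by 2.28 in HPBCD (SE 0.26, adjusted p = 1.39e-05), a fold of 4.86.

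The Grm2 calls in both regional comparisons held in 10 of the 10 fits that left out 1 library, and the interaction call in 20 of 20. The difference between treatments in peri-infarct tissue, -1.18 (SE 0.31, edgeR adjusted p = 0.0263), was lost when replicate 1 or 2 of the vehicle libraries, or replicate 3 or 4 of the HPBCD libraries, was left out. Its share of the summed CPM per kb of the 6 metabotropic genes went from 17.5% ± 5.16 to 9.18% ± 1.86 in vehicle and from 20% ± 2.64 to 4.87% ± 2.17 in HPBCD (SD, n = 5 each). Exons of Grm2 overlap the gene Gm28111 on the opposite strand over 470 bp, with the same limit on its counts as for Grin1.

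Grm5, a group I receptor coupled to calcium release and present in neurons and astrocytes, held most counts of its class. It was at 203, 125, 130, 226 and 130 CPM in vehicle contralateral and 216, 217, 204, 225 and 187 CPM in vehicle peri-infarct libraries, and at 132, 172, 147, 157 and 142 CPM in HPBCD contralateral and 206, 280, 152, 144 and 168 CPM in HPBCD peri-infarct libraries. Its log2 fold change was 0.35 in each treatment and was not called (edgeR adjusted p = 0.154 and 0.108), while limma voom called that in vehicle (0.55, adjusted p = 0.0102). Without vehicle contralateral replicate 4 the difference in vehicle was 0.50 (adjusted p = 0.0282), and without HPBCD peri-infarct replicate 4 that in HPBCD was 0.42 (adjusted p = 0.0418), whereas it was 0.15 (adjusted p = 0.281) without the library with hippocampal markers.

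Grm7, a presynaptic group III receptor of the active zone, was at 32.5, 36.1, 33.1, 42.0 and 38.1 CPM in vehicle peri-infarct and 33, 31.8, 22.9, 21.8 and 27.4 CPM in HPBCD peri-infarct libraries, with 27.7 to 44.8 CPM in vehicle contralateral and 32.8 to 39.5 CPM in HPBCD contralateral libraries. It was lower in HPBCD than in vehicle by 0.41 (SE 0.13, edgeR adjusted p = 0.0438), a call that held in 3 of the 10 fits that left out 1 library, those without replicate 3 of the vehicle libraries or without replicate 1 or 2 of the HPBCD libraries. Grm3, the other group II receptor, which is prominent in astrocytes, showed no called difference with all libraries, at 40.3 to 55.8 CPM in vehicle peri-infarct and 36.6 to 49.3 CPM in HPBCD peri-infarct libraries. Between HPBCD regions it was at -0.27 (edgeR adjusted p = 0.0395) without HPBCD contralateral replicate 1. With all libraries and each comparison on its own, Grm4 and Grm8, of group III, had no called difference either. Grm8 was called lower in HPBCD than in vehicle peri-infarct tissue with all 4 groups in 1 fit (-0.7, adjusted p = 0.0457). It also was without vehicle peri-infarct replicate 3 (-0.87, adjusted p = 0.0263). Between HPBCD regions it was called without HPBCD peri-infarct replicate 1 (-0.62, adjusted p = 0.0389). Grm4 reached 51.2 CPM in vehicle contralateral replicate 1, against 17.0 to 24.8 CPM in the rest of its group, and without that library its difference in vehicle went from -0.28 to 0.09 (edgeR adjusted p = 0.768). Over the 6 metabotropic genes the median was 0.07 in vehicle and -0.38 in HPBCD, and 0.57 and 0.89 under pan-neuronal scaling.

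**Figure D3:**
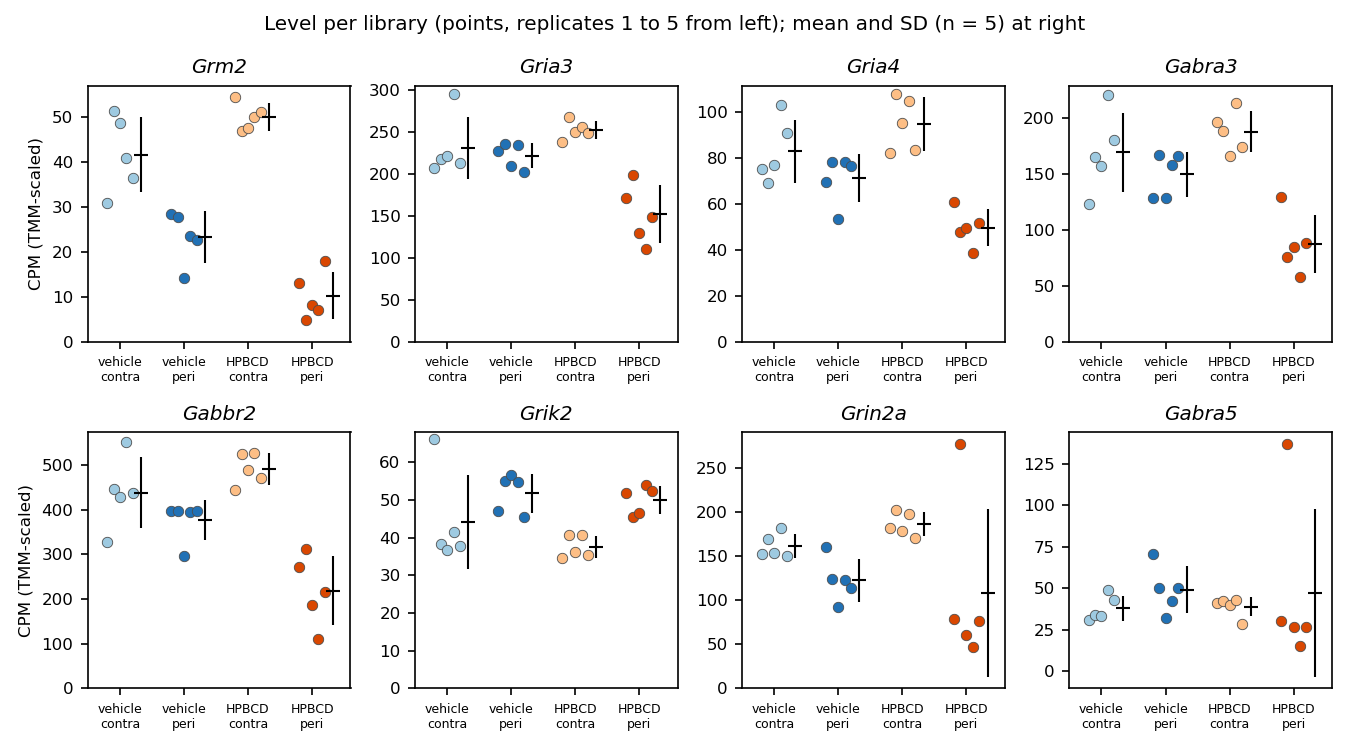
Level in CPM of 8 members in each library (points, replicates 1 to 5 from left to right) with the mean and SD of 5 libraries at the right of each group. Grm2, Gria3, Gria4, Gabra3 and Gabbr2 are lowest in the HPBCD peri-infarct group, an order that under pan-neuronal scaling held against HPBCD contralateral libraries only for Grm2, while the mean and SD of Grin2a and Gabra5 in that group are set by replicate 2.

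Gabra3, a GABA-A subunit that takes the place of the more common alpha subunits in part of the cortical neurons, had the highest mean CPM over the 20 libraries among the GABA-A genes measured. In HPBCD peri-infarct libraries its mean, 87.1 CPM, was below the 125 CPM of Gabrb1. Gabra3 (ENSMUSG00000031343, chromosome X, 72432681 to 72656848, minus strand) was at 123, 165, 157, 220 and 180 CPM in vehicle contralateral and 128, 167, 128, 158 and 166 CPM in vehicle peri-infarct libraries, and at 196, 188, 166, 213 and 174 CPM in HPBCD contralateral and 129, 75.3, 84.6, 58.2 and 88.3 CPM in HPBCD peri-infarct libraries. The vehicle regions overlapped and the HPBCD regions did not. It fell in HPBCD by 1.11 (SE 0.17, edgeR adjusted p = 0.000137), with -0.19 in vehicle, and under pan-neuronal scaling the HPBCD difference was 0.13. Between treatments the peri-infarct difference was -0.78 (SE 0.18, adjusted p = 0.0189), which lost its call without HPBCD peri-infarct replicate 3 (adjusted p = 0.0529).

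Gabrd, whose product forms extrasynaptic receptors that carry tonic inhibition, fell in both treatments. It was at 123, 112, 85.6, 70.7 and 87.1 CPM in vehicle contralateral and 53.8, 65.2, 72.4, 55.7 and 33 CPM in vehicle peri-infarct libraries, and at 108, 86.4, 81.2, 87.2 and 111 CPM in HPBCD contralateral and 56.7, 22.6, 47.2, 56.3 and 67.1 CPM in HPBCD peri-infarct libraries. The fall was 0.78 in vehicle (SE 0.20, edgeR adjusted p = 0.021) and 0.93 in HPBCD (SE 0.21, adjusted p = 0.00263). The interaction was -0.15 with an SE of 0.32, and the call in vehicle was lost when the 3 libraries with hippocampal or striatal markers were left out together, at -0.65 (adjusted p = 0.0773). Gabra4, which joins Gabrd in extrasynaptic receptors of several forebrain regions, was at 161, 119, 113, 131 and 102 CPM in vehicle contralateral and 106, 114, 109, 116 and 91.6 CPM in vehicle peri-infarct libraries, and at 128, 128, 122, 132 and 139 CPM in HPBCD contralateral and 94.5, 77.0, 79.4, 78.6 and 96.7 CPM in HPBCD peri-infarct libraries. It fell in HPBCD by 0.61 (SE 0.09, edgeR adjusted p = 6.54e-05), with no overlap between regions, and was not called in vehicle (-0.24, or -0.11 without vehicle contralateral replicate 1). Between treatments in peri-infarct tissue it differed by -0.34 (SE 0.09, adjusted p = 0.03), a call lost without replicate 1, 2 or 4 of the vehicle libraries or replicate 3 or 4 of the HPBCD libraries.

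Gabrb1 was the GABA-A gene that rose. It was at 85.3, 90.0, 86.5, 138 and 94.3 CPM in vehicle contralateral and 143, 131, 147, 141 and 154 CPM in vehicle peri-infarct libraries, a rise of 0.52 (SE 0.12, edgeR adjusted p = 0.0141) that held in 10 of the 10 fits that left out 1 library. In HPBCD it was at 81.7, 115, 101, 101 and 79.0 CPM in contralateral and 129, 198, 100, 96.5 and 101 CPM in peri-infarct libraries, a difference of 0.40 that was not called (adjusted p = 0.117) and was 0.15 (adjusted p = 0.336) without replicate 2 of the peri-infarct group. Astrocytes are known to express this beta subunit, and 3 of 6 astrocyte markers were higher in the peri-infarct region of each treatment (summed levels of 4520 to 5460 CPM in vehicle contralateral against 5000 to 7440 CPM in vehicle peri-infarct libraries), and their part in the rise was not tested. Gabra4 and Gabrb1 lie head to head on opposite strands of chromosome 5, and their exons share 46 bp.

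Gabra5, an alpha subunit most abundant in hippocampus, was at 30.8, 33.8, 33, 48.7 and 43.2 CPM in vehicle contralateral and 70.5, 50.1, 31.8, 42.3 and 50.4 CPM in vehicle peri-infarct libraries, and at 41.2, 42.2, 39.7, 43.2 and 28.6 CPM in HPBCD contralateral and 30.4, 137, 26.9, 14.9 and 26.8 CPM in HPBCD peri-infarct libraries. Its 2 highest values were in the 2 libraries with hippocampal markers. The HPBCD difference of 0.30 (SE 0.49) turned to -0.67 (edgeR adjusted p = 0.00685) without HPBCD peri-infarct replicate 2. Of the other GABA-A genes Gabrg1 fell in HPBCD by 0.29 (SE 0.10, adjusted p = 0.0207). Gabrg3 was not called (-0.39, adjusted p = 0.0788), but was with the mouse as a replicate block (-0.42, adjusted p = 0.0467), with DESeq2, with no filter on low counts, with all 4 groups in 1 fit and without HPBCD peri-infarct replicate 1. Gabra2 and Gabrb2 were not called by edgeR with all libraries, and without replicate 2 of that group they were at -0.24 (adjusted p = 0.0548) and -1.04 (adjusted p = 0.0131) in HPBCD. Without vehicle contralateral replicate 4, which held 124 CPM of Gabrb2, its difference in vehicle went from 0.18 to 0.55 (adjusted p = 0.0164) and its interaction from -0.98 to -1.33 (adjusted p = 0.0438). By limma voom Gabrb2 was called between regions in vehicle (0.56, adjusted p = 0.0383) and in HPBCD (-1.0, adjusted p = 0.00437), between treatments in peri-infarct tissue (-0.69, adjusted p = 0.0209) and in the interaction (-1.56, adjusted p = 0.00634), and with no filter on low counts edgeR called it in HPBCD (-0.85, adjusted p = 0.0314). Gabrb2 lay between 41.4 and 124 CPM in vehicle contralateral and between 42.3 and 129 CPM in HPBCD contralateral libraries. Over the 9 GABA-A genes the median was 0.09 in vehicle and -0.39 in HPBCD, and 0.61 and 0.82 under pan-neuronal scaling.

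Gabbr1 and Gabbr2 encode the partners of the GABA-B receptor, of which Gabbr1 binds GABA and Gabbr2 couples to the G protein. Gabbr1 was at 904, 815, 855, 892 and 850 CPM in vehicle contralateral and 787, 819, 730, 750 and 756 CPM in vehicle peri-infarct libraries, and at 844, 832, 807, 810 and 823 CPM in HPBCD contralateral and 667, 660, 537, 438 and 564 CPM in HPBCD peri-infarct libraries. The HPBCD peri-infarct libraries lay below all others. Gabbr1 fell in HPBCD by 0.52 (SE 0.12, edgeR adjusted p = 0.0029), and its difference of -0.18 in vehicle was not called (adjusted p = 0.0674). DESeq2 (-0.19, adjusted p = 0.00318) and limma voom (-0.17, adjusted p = 0.0331) called the vehicle difference. So did edgeR without vehicle peri-infarct replicate 2 (-0.21, adjusted p = 0.0471).

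Gabbr2 (ENSMUSG00000039809, chromosome 4, 46662305 to 46991873, minus strand) was at 327, 446, 429, 551 and 438 CPM in vehicle contralateral and 398, 397, 296, 395 and 398 CPM in vehicle peri-infarct libraries, and at 444, 525, 489, 528 and 472 CPM in HPBCD contralateral and 271, 311, 187, 111 and 215 CPM in HPBCD peri-infarct libraries. It fell in HPBCD by 1.16 (SE 0.22, edgeR adjusted p = 0.000697), with -0.23 in vehicle that was not called. Under pan-neuronal scaling the HPBCD difference of Gabbr2 was 0.02. The medians of the pair, -0.20 in vehicle and -0.84 in HPBCD, became 0.30 and 0.37 on that scale.

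Library scaling cancels almost fully in ratios of receptor partners. Grin2a over Grin2b, in log2 of CPM + 0.5 and not corrected for length, was -0.84, -0.52, -0.50, -1.26 and -0.46 in vehicle contralateral and -1.43, -1.56, -1.70, -1.61 and -1.45 in vehicle peri-infarct libraries, and -0.26, -0.90, -0.78, -0.79 and -0.53 in HPBCD contralateral and -1.87, -1.32, -1.69, -1.30 and -1.47 in HPBCD peri-infarct libraries. Every peri-infarct library lay below every contralateral library. The regional difference was -0.84 in vehicle and -0.88 in HPBCD (two-sided exact permutation test, p = 0.00794 for each, the smallest value 5 against 5 libraries can give, and 0.0238 adjusted over 12 tests). This test takes the libraries as unpaired. The ratio was lower in the peri-infarct region in 5 of 5 mice of each treatment, and sign flips within 5 mice cannot give an exact p below 0.0625. The library with hippocampal markers, which stood apart for each gene, did not stand apart for their ratio. Between treatments the ratio differed by 0.02 in peri-infarct and 0.06 in contralateral tissue (exact permutation p = 0.857 and 0.77).

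Gria1 over Gria2 was -0.33, -0.58, -0.56, -0.64 and -0.46 in vehicle contralateral and 0.06, -0.34, -0.24, -0.39 and -0.40 in vehicle peri-infarct libraries, and -0.61, -0.75, -0.60, -0.73 and -1.04 in HPBCD contralateral and -0.14, 0.52, -0.09, -0.03 and -0.22 in HPBCD peri-infarct libraries. The HPBCD regions did not overlap and differed by 0.75 (exact permutation p = 0.00794, adjusted p = 0.0238). In vehicle the difference was 0.25 (exact permutation p = 0.0317, adjusted p = 0.0544), with 1 contralateral library among the peri-infarct values. In contralateral tissue the ratio was lower in HPBCD by -0.23 (exact permutation p = 0.0317, adjusted p = 0.0544). Without vehicle contralateral replicate 1 it was -0.18 (exact permutation p = 0.0714). In peri-infarct tissue it differed between treatments by 0.27 (exact permutation p = 0.103), and by 0.35 (exact permutation p = 0.0159) without vehicle peri-infarct replicate 1.

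Gabbr1 over Gabbr2 was 1.46, 0.87, 0.99, 0.69 and 0.96 in vehicle contralateral and 0.98, 1.04, 1.30, 0.93 and 0.93 in vehicle peri-infarct libraries, and 0.92, 0.66, 0.72, 0.62 and 0.80 in HPBCD contralateral and 1.30, 1.09, 1.52, 1.98 and 1.39 in HPBCD peri-infarct libraries. The HPBCD regions did not overlap, since Gabbr2 fell by more than Gabbr1, and differed by 0.71 (exact permutation p = 0.00794, adjusted p = 0.0238). In vehicle the regions differed by 0.04 (exact permutation p = 0.778). Peri-infarct libraries of the 2 treatments differed by 0.42 (exact permutation p = 0.0238, adjusted p = 0.0544), and contralateral libraries by -0.25 (exact permutation p = 0.0794), or -0.33 without vehicle contralateral replicate 4 (exact permutation p = 0.0238).

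**Figure D4:**
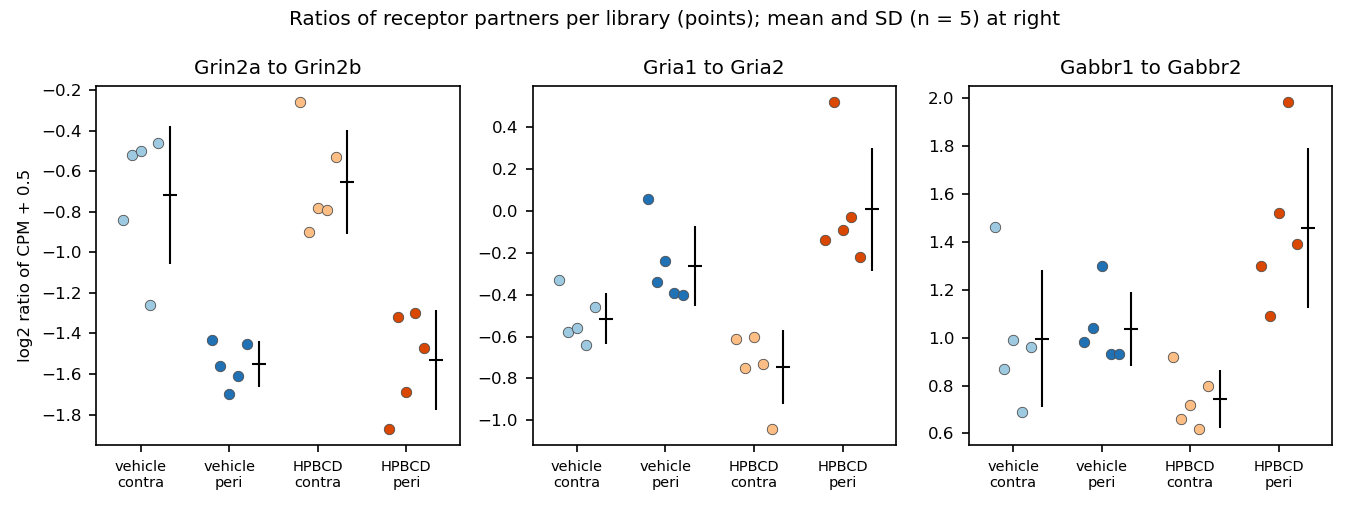
Log2 ratio of CPM + 0.5 for 3 pairs of receptor partners in each library (points) with the mean and SD of 5 libraries per group. The Grin2a to Grin2b ratio is lower in all peri-infarct libraries of both treatments, while the Gria1 to Gria2 and Gabbr1 to Gabbr2 ratios separate the regions without overlap in HPBCD and overlap between regions in vehicle.

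Genes whose products escort or anchor these receptors were counted from lists chosen with earlier results known. Of 11 AMPA receptor auxiliary genes 1 was higher and 2 were lower in the peri-infarct region in vehicle, and 3 were higher and 5 were lower in HPBCD, with 6 lower in HPBCD than in vehicle peri-infarct tissue. Over all genes tested 10.5% were higher and 9.7% lower in vehicle, 30.3% and 24.3% in HPBCD, and 9.0% were lower between treatments. Between treatments in peri-infarct tissue Cacng2, which encodes stargazin, a transporter of AMPA receptors to synapses, differed by -0.67 (edgeR adjusted p = 0.0161) and Cnih3, which slows AMPA receptor closing, by -0.81 (adjusted p = 0.0189). Between HPBCD regions Cacng4 and Cacng5 rose by 1.17 and 0.86 (edgeR adjusted p = 8.38e-06 and 0.000255), where Cacng2 and Cnih3 were at -1.29 and -0.98. Between treatments in peri-infarct tissue Cacng4 and Cacng5 were at -0.0 and -0.02. Neither of the 2 kainate auxiliary genes, Neto1 and Neto2, was called in any comparison, at 0.15 and 0.02 in vehicle and 0.08 and -0.22 in HPBCD on the log2 scale.

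Of 15 scaffold genes of glutamate receptors 1 was higher and 1 lower in vehicle, and 1 was higher and 9 were lower in HPBCD, to be read against the same shares of all genes. Grip2, which binds AMPA receptor tails, fell in HPBCD by 1.17 (edgeR adjusted p = 4.01e-05), while Homer3, a scaffold of group I metabotropic receptors, rose by 1.01 in vehicle (adjusted p = 0.0151) and 2.07 in HPBCD (adjusted p = 3.57e-05). Of 7 GABA-A anchoring genes none was called in vehicle, and 1 was higher and 3 were lower in HPBCD. Gphn, encoding gephyrin, the scaffold of inhibitory synapses, fell by 0.37 (edgeR adjusted p = 0.0198) and Nlgn2, encoding neuroligin 2, by 0.49 (adjusted p = 0.00704). Of 4 GABA-B auxiliary genes Kctd8 fell in vehicle by 0.53 (edgeR adjusted p = 0.0488), and Kctd12 and Kctd12b rose in HPBCD by 1.03 and 0.98 (adjusted p = 6.02e-05 and 0.00168), in tissue where Gabbr1 and Gabbr2 fell.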

How the data were processed

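RNA from 20 brain tissue samples (4 groups of 5) was sequenced as stranded mRNA libraries. Per the submitters' processing notes the authors used bcl2fastq 2.19, Trimmomatic 0.32, STAR 2.5.2b, HTSeq and DESeq2 with GRCm38, and deposited raw read counts per gene. The strand setting and the annotation release are not given in the sources used here. The 5 summary lines of each table were left out, of which reads without a feature made 4.39% to 9.5%, ambiguous reads 3.94% to 8.03% and reads not unique 16.58% to 24.3%. HPBCD contralateral replicate 4 alone gave the 9.5% and the 8.03%, against at most 5.86% and 4.16% in the other libraries. It also held the fewest gene counts, 14445021. Positions and exon lengths came from a GRCm38 annotation holding 45143 of the 46078 genes, with 99.93% of counts.

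Counts were tested with edgeR 4.0.16 (R 4.3.3; quasi-likelihood F test, TMM factors, filterByExpr), with Benjamini-Hochberg adjustment over all genes tested and a threshold of 0.05. Each comparison used the 10 libraries of its 2 groups, and the interaction all 20. The standard error was taken from the fold change and its F statistic. Ratios of log2(CPM + 0.5) were tested with an exact permutation test, adjusted over 12 tests. The scripts were tested on simulated data. Alternatives were DESeq2 1.42.0, limma 3.58.1 voom with quality weights, RLE, upper quartile and pan-neuronal scaling (to 10 markers), no filter on low counts, all 4 groups in 1 fit, a replicate block, a pseudocount of 5 CPM or medians for ratios, and each library left out in turn.

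Regions were paired by the mouse identifier in the deposited names. Same-numbered libraries correlated in their deviations from group means by -0.11 to 0.301. Between treatments replicate numbers are names only, and a block on them joins different mice. That each library of a group came from a separate mouse follows from these identifiers.

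Values in every library are given, in each class, for the member with the highest mean CPM, those with the largest rise and fall between regions, and those called between treatments or in the interaction, and ranges for the others. For Grik1, Grin2d and Grm7, which meet this rule, ranges stand in place of values for some groups. The members, marker lists and associated gene lists were chosen with earlier results of these data known. No table columns of the authors' own comparisons were used.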

Additional observations from a re-analysis of the deposited data

Results flagged for a closer look

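In 15 of 132 groups of 5 libraries the value of a member was far enough from the rest of its group to pass Dixon's 95% critical value, which chance does in about 1 in 20 groups. In vehicle peri-infarct replicate 1 this was Gria1 at 529 CPM (highest of the group, the others 302 to 366 CPM). In HPBCD peri-infarct replicate 2 these were Gria1 at 885 CPM (highest of the group, the others 214 to 327 CPM), Grin2a at 277 CPM (highest of the group, the others 46.5 to 78.6 CPM), Gabra2 at 69.4 CPM (highest of the group, the others 37.3 to 43.7 CPM) and Gabra5 at 137 CPM (highest of the group, the others 14.9 to 30.4 CPM). In vehicle contralateral replicate 4 these were Gria3 at 295 CPM (highest of the group, the others 207 to 221 CPM), Grin2b at 438 CPM (highest of the group, the others 207 to 273 CPM), Gabrb1 at 138 CPM (highest of the group, the others 85.3 to 94.3 CPM) and Gabrb2 at 124 CPM (highest of the group, the others 41.4 to 60.9 CPM). In HPBCD peri-infarct replicate 4 this was Grik1 at 3.26 CPM (lowest of the group, the others 7.62 to 8.42 CPM). In vehicle contralateral replicate 1 these were Grik2 at 66.2 CPM (highest of the group, the others 36.8 to 41.4 CPM) and Grm4 at 51.2 CPM (highest of the group, the others 17.0 to 24.8 CPM). In HPBCD peri-infarct replicate 5 this was Grm3 at 49.3 CPM (highest of the group, the others 36.6 to 40.3 CPM). In HPBCD contralateral replicate 5 this was Gabra5 at 28.6 CPM (lowest of the group, the others 39.7 to 43.2 CPM). In vehicle peri-infarct replicate 3 this was Gabbr2 at 296 CPM (lowest of the group, the others 395 to 398 CPM).

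The regional log2 difference differed between treatments, by the interaction term in edgeR, for Gria3 (-0.67), Gria4 (-0.71), Grm2 (-1.44), Gabra3 (-0.93) and Gabbr2 (-0.95), each more negative in HPBCD. Under pan-neuronal scaling none of these passed the test. Leaving out 1 of the 20 libraries kept the call of Grm2 in 20 fits, Gabra3 in 19, Gria3 in 18, Gria4 in 16 and Gabbr2 in 11.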

How the results depend on the processing

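Pan-neuronal scaling, limma voom and the choice of libraries changed the counts most. The 6, 15, 10 and 5 members called between regions in vehicle, between regions in HPBCD, between treatments in peri-infarct tissue and in the interaction became 26 (25 higher), 28 (27 higher), 4 (all higher) and 10 (all higher) under pan-neuronal scaling, where 68.6%, 91.5%, 66.4% and 68.9% of all genes were higher. With limma voom 11, 18 and 16 members were called between regions in vehicle, between treatments in peri-infarct tissue and in the interaction. Over all genes limma voom called 5065, 6012 and 4110 there, against 3195, 3471 and 1577 with edgeR. Leaving out 1 library at a time gave 3 to 8, 14 to 21, 0 to 21 and 1 to 11 members in the order of the 4 counts above. Over all genes these fits gave 2000 to 3920, 8043 to 9382, 823 to 5339 and 529 to 3121 calls. Without the 3 libraries with marker levels apart together, an alternative chosen after seeing the data, the counts were 5, 21, 12 and 7. Over all genes they were 2387, 9382, 3179 and 1493. DESeq2, RLE and upper quartile scaling and no filter on low counts kept each of these counts within 1.5 times. With all 4 groups in 1 fit 4, 18 and 14 members were called between regions in vehicle, between regions in HPBCD and between treatments in peri-infarct tissue. Over all genes 3371, 9552 and 4970 were called with it. Besides the calls of Grin1, Grin2a and Grin2c given in the report, this fit added Grik1, Gabrb2 and Gabrg3 in HPBCD, and Grik1, Grin1, Grm8 and Gabrg3 between treatments. With the 2 regions of a mouse as a replicate block 6, 17 and 7 members were called between regions in vehicle, between regions in HPBCD and in the interaction. Over all genes that block gave 3053, 8860 and 1830 calls. Between treatments a replicate number joins different mice, so the 12 members called there with that block are no paired result. Sign flips within mice, an alternative chosen after seeing the data, left the ratio differences between regions as they were (Grin2a to Grin2b -0.84 in vehicle and -0.88 in HPBCD, Gria1 to Gria2 0.25 and 0.75, and Gabbr1 to Gabbr2 0.71 in HPBCD) with the smallest exact p that 5 pairs can give, 0.0625, for each of these replicate block tests. The Gria1 to Gria2 ratio between vehicle regions (0.25) was 0.22 as a difference of medians (exact permutation p = 0.119) and 0.17 to 0.30 without 1 library. Between treatments it was 0.22 in peri-infarct (exact permutation p = 0.0286) and -0.18 in contralateral tissue (exact permutation p = 0.0714) without the 3 libraries, and 0.14 to 0.35 and -0.27 to -0.16 without 1. The Gabbr1 to Gabbr2 ratio between treatments in peri-infarct tissue was 0.50 without the 3 libraries (exact permutation p = 0.0571) and 0.29 to 0.51 without 1, and in contralateral tissue -0.33 to -0.13 without 1. Directions turned mainly under pan-neuronal scaling, which sets neurons' shared markers level. It moved the median of all genes to 0.53, 1.31, 0.64 and 0.79 in the order above, so that turns of small negative values follow from the scaling itself and are no result about the members. Among members called on either scale, 9 turned positive between regions in vehicle (Gria3 0.44, Grik4 0.47, Grik5 0.51, Grin1 0.14, Grin2a 0.09, Gabra3 0.32, Gabrg3 0.47, Gabbr1 0.33 and Gabbr2 0.27). Of those in HPBCD, 23 turned positive (Gria2 0.85, Gria3 0.49, Gria4 0.32, Grik1 0.70, Grik3 0.95, Grik4 1.11, Grik5 0.93, Grin1 0.38, Grin2c 0.95, Grin2d 0.76, Grid1 1.09, Grm3 1.10, Grm4 0.94, Grm7 0.84, Grm8 0.84, Gabra2 1.20, Gabra3 0.13, Gabra4 0.66, Gabrg1 0.99, Gabrg3 0.82, Gabrd 0.39, Gabbr1 0.72 and Gabbr2 0.02). Of those between treatments in peri-infarct tissue, 10 turned positive (Gria3 0.02, Gria4 0.09, Grik2 0.58, Grik5 0.14, Grm3 0.47, Grm5 0.42, Grm7 0.17, Gabra2 0.52, Gabra4 0.28 and Gabbr1 0.16). Of those in the interaction, 10 turned positive (Gria3 0.05, Gria4 0.05, Grik4 0.64, Grik5 0.42, Grid1 0.44, Grm3 0.52, Grm5 0.71, Gabra2 0.59, Gabrb1 0.56 and Gabbr1 0.39). Without HPBCD peri-infarct replicate 2, alone or with the other libraries, Grin2b turned to -0.57 and Gabra5 to -0.67 between regions in HPBCD, with ranges over the single libraries left out of -0.57 to 0.21 and -0.67 to 0.49. Apart from the alternatives' own construction, the cause of these changes was not tested. Depth was not limiting for single members, whose lowest count was 59, and 5 libraries per group limit the smallest permutation p to 0.00794.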
